A study of Mus musculus with 9 samples.

Results

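The RNA-binding protein genes followed here in the mouse retina were *Rbpms* and its paralog *Rbpms2*, *Rbfox1*, *Rbfox2*, *Rbfox3*, *Elavl2*, *Elavl3*, *Elavl4*, *Celf4* and *Nova2*, measured by bulk RNA-Seq of whole retinas. They were chosen by symbol, and the 10 genes are 10 of the 25239 gene names in each deposited table and 10 of the 15198 genes with a mean of at least 1 TPM. TPM is a level that StringTie corrects for the length of the gene and the depth of the library. The 9 libraries came from C57BL/6J mice at P42 (postnatal day 42). They were made from 3 +/+ mice, 3 *Rbpms*-CreERT2/+ mice (Cre/+) and 3 *Rbpms*-CreERT2/CreERT2 mice (Cre/Cre), the +/+ mice being littermates, and both retinas of a mouse made 1 library. In the knock-in allele the reading frame of *Rbpms* runs on at its end into P2A-CreERT2. This is a peptide that lets the ribosome skip a bond, followed by a Cre recombinase that needs tamoxifen. The *Rbpms* locus itself thus drives Cre. The allele comes from a genome-edited line, the labels name no tamoxifen for these mice, and Cre/+ and Cre/Cre carry it in all cells of the body.

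These genes act on RNA after it is transcribed. RBPMS and RBPMS2 have an RNA recognition motif. RBPMS takes part in alternative splicing in smooth muscle, and in the retina it is a marker of retinal ganglion cells (RGCs), the output neurons. RBFOX proteins bind GCAUG and steer alternative splicing in neurons, neuronal ELAV-like (Hu) proteins bind U-rich and AU-rich RNA and stabilize it, CELF4 binds transcripts of excitatory neurons, and NOVA2 controls neuronal splicing. Whole retina holds mostly photoreceptors, so a transcript of RGCs is diluted, and in such bulk samples fewer cells of a type and less RNA per cell cannot be told apart.

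The stretch of *Rbpms* that the knock-in design concerns is the end of its coding sequence. In mm10 coordinates, *Rbpms* spans 33782644 to 33929863 of chromosome 8 (minus strand) and *Rbpms2* spans 65630582 to 65660518 of chromosome 9 (plus strand). Of the 6 *Rbpms* transcripts annotated as protein-coding in GENCODE for GRCm38, the assembly of mm10, 2 share the stop codon at 33795088 to 33795090, in exon 7 of Rbpms-203. The transcript Rbpms-201 ends its coding sequence at 33784181 to 33784183 and Rbpms-202 at 33804051 to 33804053. The last 63 coding bases of Rbpms-203 and Rbpms2-201, both in exon 7, are shown with the stop codon in capitals, because both paralogs end alike and the cassette was joined to the end of RBPMS.
Rbpms-203, chr8:33795088-33795150, minus strand: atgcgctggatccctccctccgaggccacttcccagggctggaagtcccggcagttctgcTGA
Rbpms2-201, chr9:65659135-65659197, plus strand: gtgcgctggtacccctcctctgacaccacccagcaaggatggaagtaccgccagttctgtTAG

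How alike the paralogs are bears on whether their reads can be kept apart. Between the longest coding sequences of *Rbpms* and *Rbpms2*, 447 of 587 aligned bases were identical (76.1%). The longest stretch that any of their transcripts share without a difference was 20 bases, where the reads had 150. The windows around that stretch are shown, joined across exons 2 to 4, with the 14 differences in 80 bases in capitals.
Rbpms-202, chr8:33863047-33866365, minus strand: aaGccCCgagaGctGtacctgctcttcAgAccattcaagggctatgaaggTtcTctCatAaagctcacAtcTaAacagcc
Rbpms2-201, chr9:65649388-65650563, plus strand: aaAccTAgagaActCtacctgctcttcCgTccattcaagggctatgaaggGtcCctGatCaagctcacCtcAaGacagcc

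The closest windows among all members were those of *Rbfox1* with *Rbfox2* and of *Elavl3* with *Elavl4*, each around a shared stretch of 29 bases. The first pair of windows, joined from 2 exons, differed at 8 of 89 bases and the second, within exon 7 of both genes, at 7 of 89. Over all 7 pairs within the RBPMS, RBFOX and neuronal ELAV families, 76.1% to 81.1% of aligned coding bases were identical, and the longest shared stretch was 14 to 29 bases.
Rbfox1-203, chr16:7292221-7294101, plus strand: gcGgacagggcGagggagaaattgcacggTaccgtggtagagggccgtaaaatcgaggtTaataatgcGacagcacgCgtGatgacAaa
Rbfox2-204, chr15:77102908-77105633, minus strand: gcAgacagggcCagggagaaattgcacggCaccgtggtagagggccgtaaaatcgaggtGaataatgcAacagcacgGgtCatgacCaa
Elavl3-201, chr9:22018570-22018658, minus strand: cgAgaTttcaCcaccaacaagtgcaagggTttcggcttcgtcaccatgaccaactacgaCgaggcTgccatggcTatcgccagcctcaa
Elavl4-203, chr4:110206399-110206487, minus strand: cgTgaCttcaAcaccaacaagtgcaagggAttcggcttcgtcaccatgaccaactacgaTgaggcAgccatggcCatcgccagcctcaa

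The libraries held 4.05 to 4.65 aligned gigabases each, a depth read from the deposited coverage and FPKM, and the tables hold no counts. Rn45s, the ribosomal RNA precursor, took 9.21% of the TPM of Cre/Cre replicate 1 and 0.0827% to 0.336% elsewhere, and the median ratio of this library's TPM to the average library was 0.914 where the other 8 had 0.983 to 1.03. Cre/Cre replicate 1 was the lowest library for 8 of the 10 members, and for 6 of 10 after Rn45s was left out. Xist was at 516 to 585 TPM in 6 libraries and at 2.08 to 3.16 TPM in Cre/+ replicate 3, Cre/Cre replicate 1 and Cre/Cre replicate 3. Ddx3y, a gene of the Y chromosome, was at 54.8 to 75.0 TPM in the libraries with low Xist and at 0 to 0.209 TPM elsewhere. Low Xist was found in 0 libraries of +/+, 1 of Cre/+ and 2 of Cre/Cre. Sex, as read from these genes, is thus partly confounded with genotype. The summed lens markers reached 902 TPM in Cre/Cre replicate 2 and were 10.7 to 201 TPM elsewhere. Photoreceptor markers summed to 37334 to 45253 TPM over the 9 libraries and the 8 RGC markers to 1112 to 1599 TPM.

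The mean level of *Rbpms* was lower with each copy of the knock-in allele, and the slope and the contrast of Cre/Cre with +/+ passed the test. The reference mm10 does not hold the cassette, so reads that lie on it cannot count towards *Rbpms*. What this does to the level of *Rbpms* was not tested. The level of *Rbpms* was 43.2, 38.4 and 43.4 TPM in +/+ replicates 1, 2 and 3 (41.7 ± 2.85, mean ± SD, n = 3). In Cre/+ it was 31.3, 32.2 and 33.1 TPM (32.2 ± 0.888, n = 3), and in Cre/Cre it was 19.7, 19.1 and 24.2 TPM (21.0 ± 2.80, n = 3). The 3 genotypes did not overlap. Taken pair by pair, 10.3% of all genes had Cre/+ wholly below +/+, 8.05% had Cre/Cre below +/+ and 7.23% had Cre/Cre below Cre/+. The share of genes with all 3 genotypes apart in this order was not counted. The Cre/+ mean was 77.3% and the Cre/Cre mean 50.4% of the +/+ mean. In 1 limma model of all 9 libraries on log2(TPM + 1), adjusted by Benjamini-Hochberg over 15198 genes, *Rbpms* was lower in Cre/Cre than in +/+ by a log2 fold change of -0.96 (SE 0.0979, 95% confidence interval -1.17 to -0.75, adjusted p = 0.000581). It was the only member called among 10 at an adjusted p of at most 0.05, where 0.00658% of all genes were called, which is *Rbpms* alone. The slope over 0, 1 and 2 knock-in alleles was -0.48 per allele on the log2 scale (SE 0.0513, adjusted p = 0.00169, limma), and *Rbpms* was the only member called or with an unadjusted p under 0.05, where 0.00658% and 6.24% of all genes were.

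The single steps of this series were less certain. In Cre/+ against +/+ *Rbpms* had a log2 fold change of -0.36 (SE 0.0979, 95% confidence interval -0.57 to -0.15), which did not pass the adjustment in limma (adjusted p = 0.355). None of the 10 members was called there, 1 (*Rbpms*) had an unadjusted p under 0.05, and over all genes 0.00658% were called and 10.7% had such a p. In Cre/Cre against Cre/+ the log2 fold change of *Rbpms* was -0.60 (95% confidence interval -0.81 to -0.39, adjusted p = 0.0567, limma). Again 0 of 10 members were called, 2 (*Rbpms* and *Rbfox1*) had an unadjusted p under 0.05, and over all genes 0.0132% were called and 6.58% had such a p. This call depended on the settings, and without Cre/Cre replicate 3, the highest of its genotype, the value was -0.70 (adjusted p = 0.0107). The Cre/+ level lay 0.12 above the midpoint of the other genotypes on the log2 scale (95% confidence interval -0.06 to 0.30, adjusted p = 0.631, limma). A departure from equal steps was thus not detected with 3 libraries per genotype. None of the 10 members was called for it, where 0.0197% of all genes were, and 0 had an unadjusted p under 0.05, where 9.45% of all genes did.

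Xist and Rn45s differed between libraries, and the values of *Rbpms* are given beside them. With Xist as a covariate the Cre/Cre value was -1.04 on the log2 scale. Among the libraries with Xist above 100 TPM it was -1.08, a value that rests on 1 Cre/Cre library and takes its spread from the other genotypes. Within Cre/+, the library with low Xist had 33.1 TPM of *Rbpms* and the other two a mean of 31.8 TPM. Within Cre/Cre, the library with high Xist had 19.1 TPM and the other two a mean of 22.0 TPM. Without Cre/Cre replicate 1, the library rich in Rn45s, the slope per allele was -0.45 (adjusted p = 0.0202, limma).

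**Figure D1:**
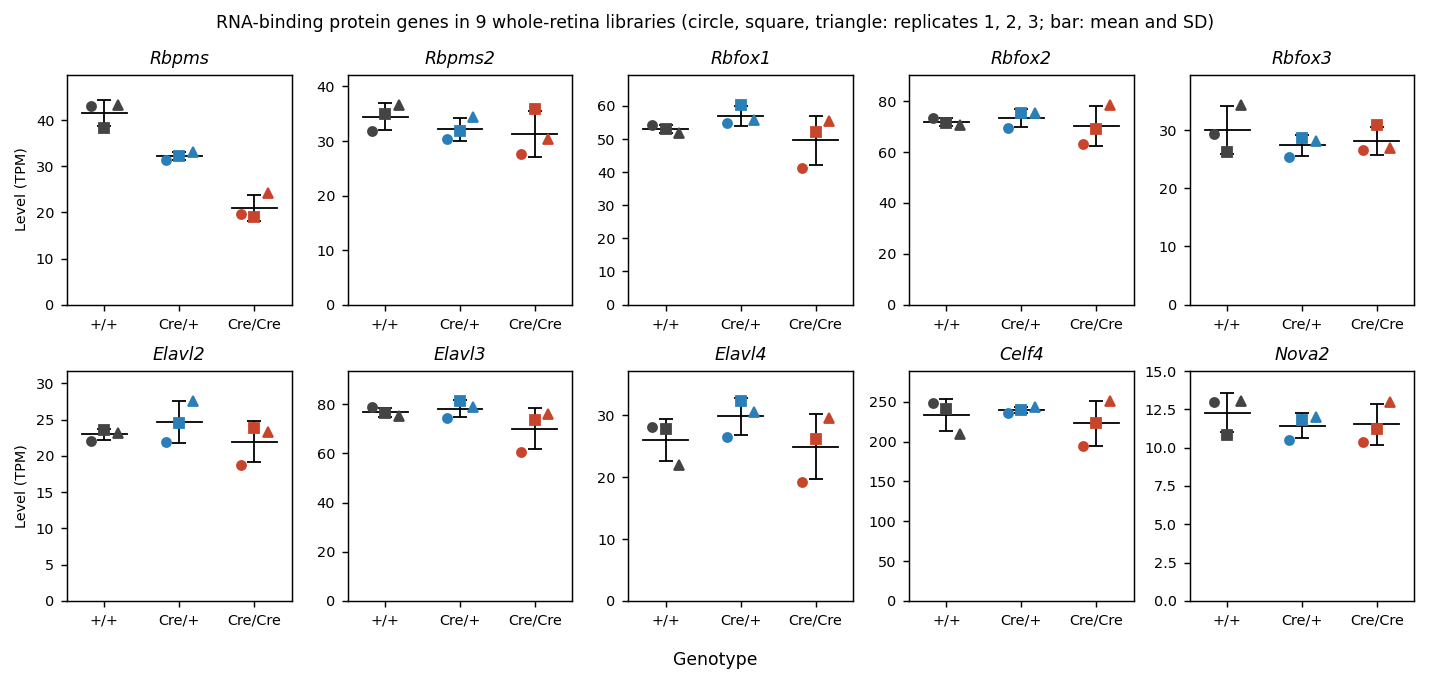
TPM of the 10 genes (y axis, from 0, a scale for each gene) in each of the 9 whole-retina libraries by genotype (x axis), with circles, squares and triangles for replicates 1, 2 and 3 and bars for the mean and SD. *Rbpms* steps down from 38.4 to 43.4 TPM in +/+ to 19.1 to 24.2 TPM in Cre/Cre, and the other 9 genes overlap between +/+ and Cre/Cre.

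*Rbpms2*, the only paralog of *Rbpms* among the members, showed no change that passed the test. Its level was 31.8, 34.9 and 36.7 TPM in +/+ (34.5 ± 2.50, n = 3), 30.3, 31.7 and 34.4 TPM in Cre/+ (32.1 ± 2.09, n = 3), and 27.5, 35.9 and 30.4 TPM in Cre/Cre (31.3 ± 4.25, n = 3). The genotypes overlapped throughout, with Cre/Cre replicate 1 lowest and +/+ replicate 3 highest. The log2 fold change of *Rbpms2* in Cre/Cre was -0.14 (95% confidence interval -0.36 to 0.073, adjusted p = 0.855, limma), and in Cre/+ it was -0.097 (95% confidence interval -0.31 to 0.12, adjusted p = 0.733). Single libraries moved the Cre/Cre value, which was -0.058 without Cre/Cre replicate 1, the library rich in Rn45s, and -0.24 without Cre/Cre replicate 2.

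The balance of the paralogs shifted with genotype. *Rbpms* stood at 136%, 110% and 118% of the TPM of *Rbpms2* in +/+ (121% ± 13.3, n = 3), at 103%, 101% and 96.2% in Cre/+ (100.4% ± 3.71, n = 3) and at 71.6%, 53.2% and 79.8% in Cre/Cre (68.2% ± 13.6, n = 3). *Rbpms* was thus the higher of both in 3 of 3 +/+ libraries, 2 of 3 Cre/+ libraries and 0 of 3 Cre/Cre libraries. The log2 ratio had a slope of -0.42 per allele (two-sided exact permutation p = 0.00119 over 1680 arrangements, the smallest they can give; adjusted over 3 slopes, 0.00179). Each of the 3 pairs of genotypes was separated without overlap (exact permutation p = 0.1, the smallest that 3 against 3 libraries allow). A ratio within a library does not depend on how the library was scaled, but it does depend on the unit, as described with the coverage values.

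The levels of RGC markers were lower in Cre/Cre without passing the test. Of 8 RGC markers (*Thy1*, *Pou4f1*, *Pou4f2*, *Isl2*, *Sncg*, *Nefl*, *Nefm* and *Slc17a6*), 0 were called in Cre/Cre by limma, 7 had an unadjusted p under 0.05, where 6.97% of all genes did, and 8 of 8 had a log2 fold change below 0, where 57.7% of all genes did. Their median was -0.32 (range -0.45 to -0.20), against -0.024 over all genes. The direction was not particular to RGC markers. Below 0 were also 7 of 7 amacrine (median -0.067), 5 of 5 bipolar (-0.096) and 4 of 4 Müller glia markers (-0.11). The same held for 5 of 6 photoreceptor (-0.058) and 3 of 4 horizontal cell markers (-0.11). In Cre/+ 0 of the 8 RGC markers were called, and 1 had an unadjusted p under 0.05, where 10.7% of all genes did. A log2 fold change below 0 was found for 5 of the 8, where 49.6% of all genes had one. The median of the 8 was -0.12 (range -0.21 to 0.039), against 0.0014 over all genes. The summed TPM of the 8 RGC markers was 1511 to 1599 in +/+, 1451 to 1504 in Cre/+ and 1112 to 1346 in Cre/Cre, with Cre/Cre replicate 1 lowest. *Thy1*, a surface protein of RGCs, was at 343 ± 1.19 TPM in +/+ and 278 ± 23.0 TPM in Cre/Cre (n = 3 each).

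*Rbpms* was lower also relative to these markers, and for *Rbpms2* the slope relative to them did not pass the test. *Rbpms* was 2.68% ± 0.198 of the summed RGC markers in +/+, 2.19% ± 0.0243 in Cre/+ and 1.67% ± 0.220 in Cre/Cre (n = 3 each), a slope of -0.34 per allele on the log2 scale (exact permutation p = 0.00119; adjusted over 3 slopes, 0.00179). *Rbpms2* was 2.22% ± 0.223, 2.18% ± 0.1 and 2.48% ± 0.193 of the same sum in +/+, Cre/+ and Cre/Cre (n = 3 each), a slope of 0.078 per allele (exact permutation p = 0.151). Without +/+ replicate 3 that slope was 0.12 (exact permutation p = 0.0339). *Rbpms* is also known in smooth muscle, whose 8 listed markers (with pericytes) summed to 69.4 to 86.7 TPM in +/+, 75.7 to 81.0 TPM in Cre/+ and 62.3 to 77.8 TPM in Cre/Cre. Over the 9 libraries, the contractile genes of this list were at 0 to 0.210 TPM (*Cnn1*), 0.597 to 1.35 TPM (*Myh11*), 0.817 to 2.69 TPM (*Acta2*) and 4.09 to 8.18 TPM (*Tagln*), and the pericyte gene *Rgs5*, the highest of the list, was at 44.5 to 61.9 TPM.

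**Figure D2:**
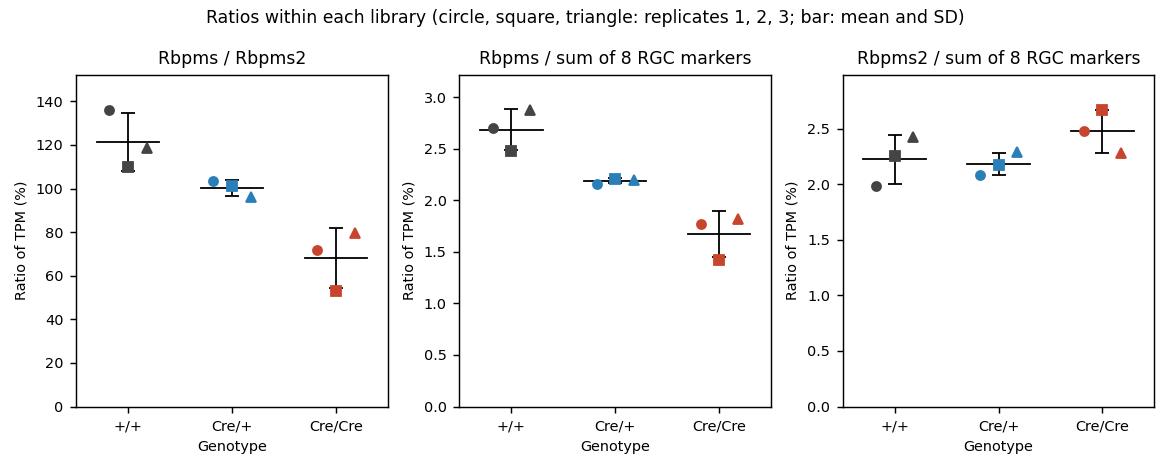
Ratios of TPM within each library, in percent (y axis, from 0), by genotype (x axis), for *Rbpms* over *Rbpms2*, *Rbpms* over the sum of 8 RGC markers and *Rbpms2* over the same sum, with circles, squares and triangles for replicates 1, 2 and 3 and bars for the mean and SD. *Rbpms* passes from 110% to 136% of *Rbpms2* in +/+ to 53.2% to 79.8% in Cre/Cre, while *Rbpms2* stays between 1.99% and 2.67% of the RGC markers.

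No RBFOX gene passed the test in any contrast. *Rbfox1* was at 54.4, 52.9 and 51.9 TPM in +/+, 54.9, 60.4 and 55.7 TPM in Cre/+, and 41.4, 52.0 and 55.4 TPM in Cre/Cre. All 3 Cre/+ libraries lay above +/+, as did those of 11.9% of all genes, and the wide Cre/Cre range came from replicate 1. Its log2 fold change in Cre/Cre against Cre/+ was -0.21 (95% confidence interval -0.41 to -0.00070, unadjusted p = 0.0493, adjusted p = 0.74, limma), and it was -0.083 without Cre/Cre replicate 1 and -0.29 without Cre/Cre replicate 3. *Rbfox2*, the member of the family that is used well beyond neurons, was at 73.6, 71.4 and 70.7 TPM in +/+, 69.3, 75.4 and 75.3 TPM in Cre/+ and 63.0, 69.2 and 78.7 TPM in Cre/Cre. *Rbfox3*, which encodes the neuronal nuclear antigen NeuN, was at 29.3, 26.3 and 34.4 TPM in +/+, 25.3, 28.6 and 28.2 TPM in Cre/+ and 26.6, 30.8 and 27.0 TPM in Cre/Cre. Both overlapped between all genotypes. The share of *Rbfox2* in the summed TPM of the family was 46.4% ± 1.24 in +/+, 46.5% ± 0.738 in Cre/+ and 47.5% ± 1.74 in Cre/Cre (n = 3 each).

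The neuronal ELAV genes, whose proteins mark RGCs and amacrine cells among retinal neurons, also overlapped between genotypes. *Elavl3* was at 78.8, 76.2 and 75.3 TPM in +/+, 74.5, 81.3 and 78.8 TPM in Cre/+ and 60.5, 73.7 and 75.8 TPM in Cre/Cre. *Elavl4* was at 28.1, 27.8 and 22.0 TPM in +/+, 26.5, 32.3 and 30.6 TPM in Cre/+ and 19.2, 26.1 and 29.5 TPM in Cre/Cre. *Elavl2* was at 22.1, 23.6 and 23.2 TPM in +/+, 21.9, 24.5 and 27.6 TPM in Cre/+ and 18.8, 23.8 and 23.3 TPM in Cre/Cre. For each of the 3 genes the lowest library was Cre/Cre replicate 1. Their proportions kept closer together than their levels, and *Elavl3* took 57.5% to 62.5% of the summed TPM of the family in the 9 libraries while the sum ranged from 98.5 to 138 TPM.

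*Celf4* was the most abundant of the 10 genes and *Nova2* the least by TPM. *Celf4* was at 249, 242 and 210.0 TPM in +/+, 236, 240.2 and 243 TPM in Cre/+ and 194, 223 and 251 TPM in Cre/Cre, and Cre/Cre held both its lowest and its highest library. *Nova2* was at 12.9, 10.8 and 13.0 TPM in +/+, 10.5, 11.8 and 12.0 TPM in Cre/+ and 10.4, 11.2 and 13.0 TPM in Cre/Cre, with all genotypes overlapping.

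Beyond *Rbpms*, no member passed the test in any contrast. Of the other 9, 0 were called by limma in Cre/+, in Cre/Cre, in Cre/Cre against Cre/+ or in the slope over alleles, and at an unadjusted p under 0.05 there were 0, 0, 1 and 0. Their log2 fold changes were -0.12 to 0.19 in Cre/+ and -0.14 to -0.037 in Cre/Cre. All 9 were below 0 in Cre/Cre, where 57.7% of all genes were, and without Cre/Cre replicate 1 the values of *Rbfox1*, *Rbfox2*, *Elavl2*, *Elavl4* and *Celf4* were above 0. The 95% confidence intervals of the 9 genes in Cre/Cre ran from -0.38 to 0.24 at the widest, that of *Elavl4*. These bounds are not a limit of detection, and larger changes can also go uncalled. In Cre/Cre against Cre/+, *Rbpms* at -0.60 was not called (adjusted p = 0.0567, limma). Groups did not overlap for 1 of the 9 genes in Cre/+ (*Rbfox1*) and for 0 of 9 in Cre/Cre, against 22.2% and 10.8% of all genes.

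**Figure D3:**
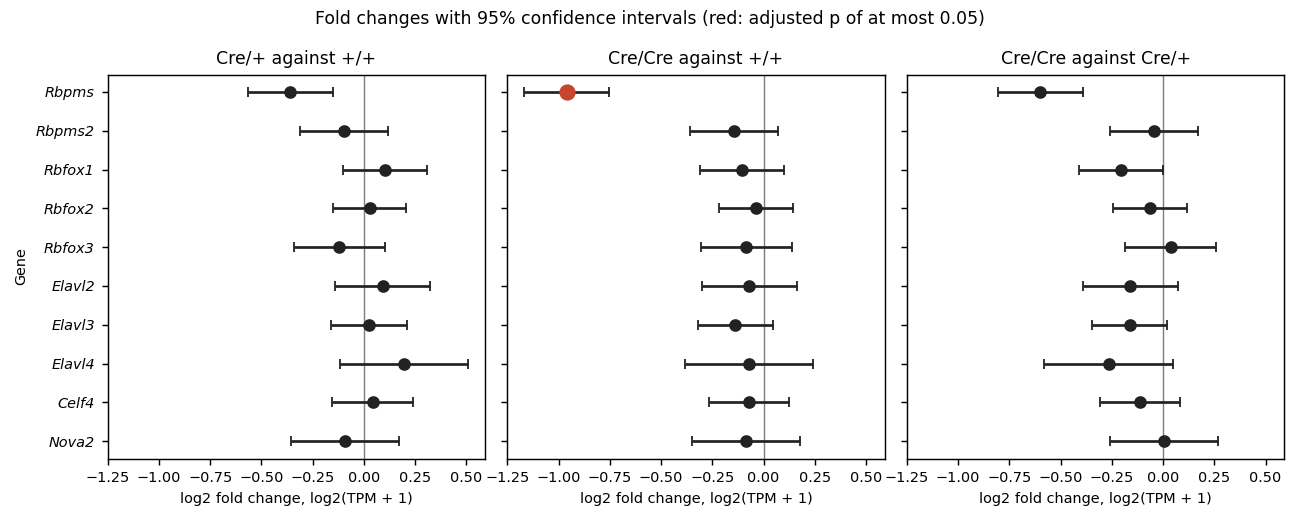
Log2 fold changes on the log2(TPM + 1) scale (x axis) of the 10 genes (y axis) in the 3 contrasts of genotypes, with bars for 95% confidence intervals from limma and red for an adjusted p of at most 0.05. *Rbpms* in Cre/Cre, at -0.96, is the only red point, and the intervals of the other 9 genes in the contrasts with +/+ include 0.

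By mean TPM over all libraries the order was *Celf4* (232), *Elavl3* (75.0), *Rbfox2* (71.8), *Rbfox1* (53.2), *Rbpms2* (32.6), *Rbpms* (31.6), *Rbfox3* (28.5), *Elavl4* (26.9), *Elavl2* (23.2) and *Nova2* (11.7). *Celf4* lay above *Elavl3*, *Rbfox2* above *Rbfox1*, *Rbfox1* above *Rbpms2* and *Elavl2* above *Nova2* in 9 of 9 libraries, with no overlap of their ranges. The neighbours *Elavl3* and *Rbfox2*, *Rbpms2* and *Rbpms*, *Rbpms* and *Rbfox3*, *Rbfox3* and *Elavl4*, and *Elavl4* and *Elavl2* had overlapping ranges. Genotype moved 1 gene far in this order, as *Rbpms* was 5th in +/+ and Cre/+ and 9th in Cre/Cre.

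The order was another one by the deposited coverage. Coverage, as StringTie gives it, is how many reads lie on an average base of the gene, and it was divided by the aligned gigabases of the library and put on the scale of the TPM. For 65.9% of the tested genes, among them *Rbpms2*, *Elavl3* and *Nova2*, it matched the TPM to within 1% of its value. *Rbfox1* had 1.10 to 1.51 by coverage against 41.4 to 60.4 TPM, or 2.49% to 2.73% of its TPM in each of the 9 libraries, and moved from 4th to 10th of the 10 genes. Only 16 of the 15198 genes tested (0.105%) had a lower mean share than *Rbfox1*. *Celf4* had 46.3% to 46.6% and *Rbfox2* 63.9% to 65.1% of its TPM. *Elavl4* had 87.4% to 88.6%, *Elavl2* 83.2% to 88.1% and *Rbfox3* 63.2% to 77.6%, the widest span of the 10.

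*Rbpms* had 45.2% to 47.1% of its TPM by coverage. By this measure it was at 19.8, 17.7 and 19.8 in +/+, 14.2, 14.7 and 15.2 in Cre/+ and 9.14, 8.94 and 11.4 in Cre/Cre, below *Rbpms2* in all 9 libraries. Which paralog is the more abundant in +/+ therefore differs between the TPM and the coverage, while the fall of *Rbpms* in Cre/Cre was called by both. The share was 45.7% to 46.2% in +/+, 45.2% to 46.0% in Cre/+ and 46.4% to 47.1% in Cre/Cre, and the log2 fold change by coverage in Cre/Cre was -0.90 (adjusted p = 0.0184, limma).

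**Figure D4:**
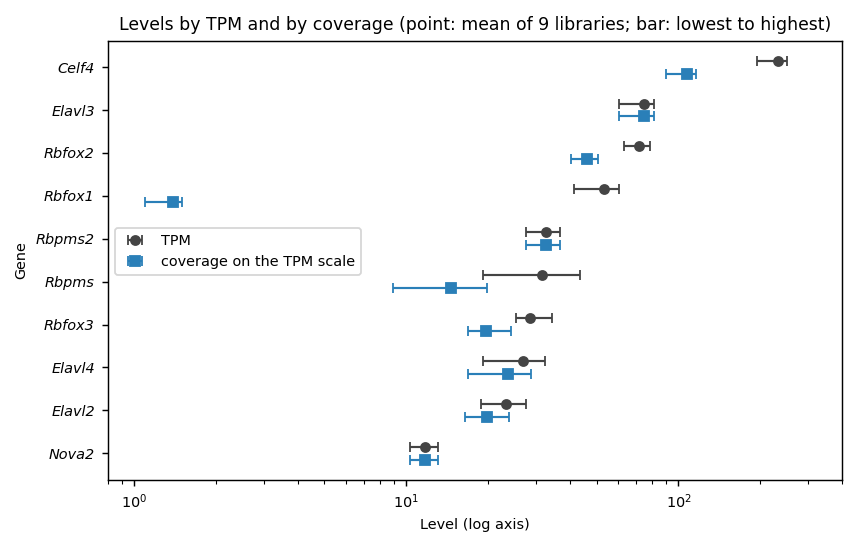
Mean level of the 10 genes over 9 libraries (x axis, log scale) by TPM (circles) and by coverage on the TPM scale (squares), with bars from the lowest to the highest library and genes (y axis) in order of mean TPM. Both measures coincide for *Elavl3*, *Rbpms2* and *Nova2*, and *Rbfox1* lies at 53.2 by TPM and 1.39 by coverage.

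Among 41 further RNA-binding proteins of neurons and muscle, listed by symbol, 39 passed the filter, and *Mbnl3* and *Esrp2* did not. In limma 0 of 39 were called in Cre/+ or in Cre/Cre. Without adjustment, 4 of them had a p under 0.05 in Cre/+, all of these higher, where 10.7% of all genes had such a p. In Cre/Cre 2 did, *Rbm20* higher and *Celf3* lower, where 6.97% of all genes did. The median log2 fold change of the list was 0.081 in Cre/+ and -0.00052 in Cre/Cre, against 0.0014 and -0.024 over all genes.

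The smallest p values of this list were those of *Fmr1*, the fragile X RNA-binding protein, *Cpeb1*, which binds a cytoplasmic polyadenylation element, and *Fxr1*, a paralog of *Fmr1*, in Cre/+. *Fmr1* was at 75.6, 72.1 and 64.8 TPM in +/+ and 91.6, 86.0 and 86.6 TPM in Cre/+, a log2 fold change of 0.31 (SE 0.0900, adjusted p = 0.357, limma). *Cpeb1* was at 23.3, 23.9 and 24.2 TPM in +/+ and 28.1, 29.0 and 28.8 TPM in Cre/+ (log2 fold change 0.26, adjusted p = 0.384). *Fxr1* had a log2 fold change of 0.21 (adjusted p = 0.405). In Cre/Cre the smallest were *Celf3* (-0.22, adjusted p = 0.664), *Rbm20*, a splicing factor of heart muscle (0.24, adjusted p = 0.715), and *Msi1*, the RNA-binding protein Musashi (-0.15, adjusted p = 0.736). *Cpeb1* was at 21.9, 23.7 and 24.6 TPM in Cre/Cre, so its Cre/+ libraries stood above both other genotypes. It was named for its small p in Cre/+. Over all genes, Cre/+ lay wholly above +/+ in 11.9% and Cre/Cre wholly below Cre/+ in 7.23%.

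The genes whose pattern was most like that of *Rbpms* were sought among 12371 genes with a mean of at least 5 TPM, by the mean absolute difference in log2(TPM + 1) over the 9 libraries after each gene was centred. They were *Mmp9* (0.175), *Pcdhb2* (0.180), *Cck* (0.184), *Nxph3* (0.184) and *Hs3st1* (0.192). The median over all ranked genes was 0.346, and a gene with no variation would have 0.347. *Mmp9*, a secreted protease, was at 18.9, 18.1 and 21.8 TPM in +/+, 16.6, 13.7 and 14.5 TPM in Cre/+ and 12.3, 13.0 and 12.4 TPM in Cre/Cre. Its 3 genotypes did not overlap, but it was picked for its likeness to *Rbpms*, whose genotypes do not overlap either. Over all genes, Cre/+ lay wholly below +/+ in 10.3%, Cre/Cre below +/+ in 8.05% and Cre/Cre below Cre/+ in 7.23%. *Cck*, a neuropeptide, was at 38.1 to 40.3 TPM in +/+, 32.5 to 40.5 TPM in Cre/+ and 24.4 to 31.7 TPM in Cre/Cre. None of the 5 was called in Cre/Cre (adjusted p = 0.126 to 0.581, limma). Of the other 9 members, the closest to *Rbpms* was *Elavl3* (0.289, 784th of 12371) and *Rbpms2* was 1594th (0.305).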

How the data were processed

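RNA of whole retinas from 9 mice was sequenced by the authors from strand-specific libraries as paired reads of 150 bases. Per the labels, reads were trimmed with Trimmomatic, aligned to mm10 with HISAT2 and quantified with StringTie. Versions, annotation and strand setting are not given in the sources used here. The authors deposited 1 gene table per library with coverage (the mean signal over the bases of a gene), FPKM (fragments by gene length and library depth) and TPM, which sum to 1000000. The deposited tables hold no counts, so limma was used in place of a count test, and mm10 does not hold the P2A-CreERT2 cassette.

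TPM of rows with the same Gene ID were summed. limma 3.58.1 (R 4.3.3; trend and robust prior) was fitted to log2(TPM + 1) of the genes that averaged 1 TPM or more, with 6 residual degrees of freedom, and p-values were adjusted by Benjamini-Hochberg at 0.05. Fold changes on this scale understate those of low genes. Ratios were tested by exact permutation of libraries. The scripts were tested on simulated data. Counting error per gene is unknown, since depth is known only as aligned bases, and precision rests on the spread among 3 libraries per genotype. The replicate numbers come from the labels, which do not say that they mark litters, and same-numbered libraries did not deviate together (correlations -0.116 to 0.128), so no block was used.

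The members and lists were chosen with earlier results of these data known. Named genes were the 10 members, the other RNA-binding proteins past an adjusted p of 0.05 or among the 3 smallest p values in Cre/+ or Cre/Cre against +/+, cell type markers set beside a member, Xist, Ddx3y, Rn45s, and the 5 genes nearest to *Rbpms* among those with a mean TPM of at least 5. Transcript sequences are from GENCODE for GRCm38, compared with Biopython 1.88. Alternatives were a pseudocount of 0.1, filters (none, or a mean TPM of at least 5), median-ratio scaling, leaving out Rn45s, FPKM, a replicate block, Xist as a covariate, the compared genotypes alone, no robust prior, the mean of log2 marker TPM, and each library left out. Coverage, and the libraries with Xist above 100 TPM alone, were added after seeing the data.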

Additional observations from a re-analysis of the deposited data

How the results depend on the processing

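The fall of *Rbpms* in Cre/Cre was called in limma under all 12 alternatives (log2 fold change -1.08 to -0.90; 1 of them, the libraries with Xist above 100 TPM, leaves 1 Cre/Cre library, which is assumed to vary like the other groups) and without each library in turn (-1.06 to -0.90), and in Cre/+ it was not called under any of them (adjusted p = 0.128 to 0.493, and 0.166 to 0.881 without each library). With the replicate number as a block the Cre/Cre value was -0.96 (adjusted p = 0.00496), and the block changed no call. In Cre/Cre against Cre/+, *Rbpms* passed the threshold, so that 1 member in place of 0 was called, with a mean TPM of at least 5 (-0.60, adjusted p = 0.0166), with FPKM (-0.57, adjusted p = 0.035) and with Xist as a covariate (-0.64, adjusted p = 0.0337). Without each library it was -0.70 to -0.54, with 0 to 1 members called, the 1 without Cre/Cre replicate 3. The slope of *Rbpms2* against the RGC markers was 0.045 to 0.12 without each library, past the threshold only without +/+ replicate 3.

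The other 9 members were called under no alternative (smallest adjusted p = 0.31), and 26 of their 567 values changed sign. In Cre/Cre, *Rbfox2* was at 0.0074 without Rn45s, and with only the libraries with Xist above 100 TPM *Rbpms2* was at 0.059, *Rbfox3* at 0.046, *Elavl2* at 0.052 and *Elavl4* at 0.015. In Cre/+, *Elavl3* was at -8.6e-05 with FPKM. In Cre/Cre against Cre/+, *Nova2* was at -0.014 with FPKM and -0.018 with the Xist covariate, *Rbfox3* at -0.034 by coverage, and *Rbpms2* at 0.20 and *Elavl2* at 0.042 with only the libraries with Xist above 100 TPM. Without each library in turn, the ranges that crossed 0 were, in Cre/+, *Elavl3* (-0.0027 to 0.060) and *Celf4* (-0.032 to 0.090), in Cre/Cre, *Rbfox1* (-0.19 to 0.018), *Rbfox2* (-0.12 to 0.038), *Rbfox3* (-0.17 to 0.015), *Elavl2* (-0.13 to 0.035), *Elavl4* (-0.20 to 0.099) and *Celf4* (-0.16 to 0.024), and in Cre/Cre against Cre/+, *Rbpms2* (-0.15 to 0.039), *Rbfox2* (-0.15 to 0.011), *Rbfox3* (-0.029 to 0.074) and *Nova2* (-0.077 to 0.074). The cause was not tested. Alternatives that need counts were not run.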

Other observations

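Blood markers (hemoglobin genes) summed to 149 to 180.2 TPM in +/+, 90.9 to 103 TPM in Cre/+ and 183 to 296 TPM in Cre/Cre. Müller glia markers summed to 3583 to 4008 TPM in +/+, 3812 to 4058 TPM in Cre/+ and 3319 to 3662 TPM in Cre/Cre. Bipolar cell markers summed to 819.9 to 915 TPM in +/+, 863 to 885 TPM in Cre/+ and 679 to 856 TPM in Cre/Cre, with Cre/Cre replicate 1 lowest. The part of these lists in the values of the 10 RNA-binding protein genes was not tested.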
